A study of Mus musculus with 20 samples.

Results

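The 10 genes described here are *Kap*, *Odc1*, *Gusb*, *Timd2*, *Acsm3*, *Apoh*, *Serpina1b*, *Serpina1d*, *Serpina1f* and *Serpina6*, taken by name from a table of 24411 genes counted in mouse kidney. Of these, 8 were listed as known androgen-responsive kidney genes or as their serpin relatives. *Apoh* and *Serpina1b* were chosen by their CPM pattern over the groups studied here, so their values are a description and carry no test.

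Whole-kidney RNA was sequenced from 20 C57BL/6 mice at P125, 1 library per mouse, with 5 male controls (MC1 to MC5), 5 male mutants (MM1 to MM5), 5 female controls (FC1 to FC5) and 5 female mutants (FM1 to FM5). Mutants were *Pkd2* fl/fl; *Pax8* rtTA; *TetO* Cre, and controls lacked either *Pax8* rtTA or *TetO* Cre. Every mouse, controls included, had received doxycycline at 50 mg/kg from P27 to P29, which switches on Cre in cells that express rtTA. The *Pax8* promoter drives rtTA in kidney tubules, so the deletion was aimed at tubule cells. They belonged to 3 litters (A, B and C). *Pkd2* itself, the targeted gene, was at 291 ± 31.1 CPM (counts scaled to library size, SD, n = 5) in male controls and 119 ± 9.86 in male mutants, and at 257 ± 49.1 in female controls and 145 ± 33.6 in female mutants.

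Total counts per mouse ranged from 11307741 to 19324073. A pair of libraries stood apart. In FM4, 14850 genes had a count, against 16776 to 17724 in the other 19 mice, and 76 genes had exactly 1 count, against 708 to 859. The library of MM5 held transcripts known from liver: *Mup20*, a major urinary protein made in liver, was at 6.15 CPM there and listed at 0 in the other 19, *Serpina3k* was at 7.39 CPM against at most 0.259, and *Ahsg*, which encodes fetuin-A, at 4.18 against at most 0.327. MM5 had the highest level of 8 of 14 liver markers. *Apoh*, *Serpina1b*, *Serpina1d* and *Serpina6* are also made in liver, so their results are given with and without MM5, and the part of liver RNA in them was not tested. Adrenal and epididymal tissue left few traces: of 7 adrenal markers only *Star*, highest at 7.80 CPM, and *Mc2r*, at 1.21, reached 1 CPM in any mouse, and of 6 epididymis markers only *Adam7* did, at up to 1.47 CPM.

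The mouse kidney differs between the sexes chiefly in the proximal tubule, the segment that reabsorbs most of the filtrate. Testosterone acts there to raise transcription of a known set of genes, among them *Kap*, *Odc1*, *Gusb* and other markers of androgen action. Serpins are a family of protease inhibitors and hormone carriers. Mice carry several near-identical copies of the gene for alpha-1-antitrypsin, the *Serpina1* paralogs, beside the more distant *Serpina1f* and *Serpina6*.

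In the GENCODE vM21 annotation of GRCm38 (mm10), the build the authors aligned to, *Gusb* lies on the minus strand of chromosome 5 from 129989011 to 130003049. *Kap* lies on the minus strand of chromosome 6 from 133849851 to 133853762. *Acsm3* lies on the plus strand of chromosome 7 from 119760923 to 119787513. Chromosome 11 holds *Timd2*, on the minus strand from 46668960 to 46707061, and *Apoh*, on the plus strand from 108343354 to 108414396. *Odc1* lies on the plus strand of chromosome 12 from 17544794 to 17551505. The serpins lie together farther along chromosome 12, all on the minus strand, in the order *Serpina6* (103646630 to 103657212), *Serpina1f* (103688044 to 103695529), *Serpina1b* (from 103728156), *Serpina1d* (103763594 to 103773592), *Serpina1a*, *Serpina1c* and *Serpina1e*. The GENCODE locus of *Serpina1b* ends at 103830373 and so spans *Serpina1d*, while RefSeq ends it at 103738189.

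Promoter sequences were available for 9 of the 10 genes in the RefSeq promoter table (GRCm38.p6). They were searched on both strands, over the 250 bases before the start site, for the hexamer AGAACA (read as TGTTCT from the other strand), the half-site of the androgen response element, and for the full androgen response element, in which the hexamer and its reverse complement flank a short spacer and so overlap it. The hexamer was present in 16.1% of all 32851 promoters of that length and the full element in 0.00913%. It was found before *Apoh*, *Serpina1b* and *Serpina1d* and not in the windows of the other 6, and none of the windows held the full element. *Kap*, *Odc1*, *Gusb*, *Timd2* and *Acsm3*, also higher in males, were among the 6 without the hexamer. The windows of *Apoh* and the sex-biased serpins are shown because they set genes with a higher level in males (the first 3) beside a gene with a lower level in males (*Serpina1f*). Capitals mark the hexamer.
Apoh, GRCm38.p6 chr11:108395047-108395296, plus strand: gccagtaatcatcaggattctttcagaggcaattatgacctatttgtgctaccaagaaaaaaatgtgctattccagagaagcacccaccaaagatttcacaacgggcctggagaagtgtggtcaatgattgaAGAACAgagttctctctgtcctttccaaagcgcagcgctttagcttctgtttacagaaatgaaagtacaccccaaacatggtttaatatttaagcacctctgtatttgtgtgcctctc
Serpina1b, GRCm38.p6 chr12:103738190-103738439, minus strand: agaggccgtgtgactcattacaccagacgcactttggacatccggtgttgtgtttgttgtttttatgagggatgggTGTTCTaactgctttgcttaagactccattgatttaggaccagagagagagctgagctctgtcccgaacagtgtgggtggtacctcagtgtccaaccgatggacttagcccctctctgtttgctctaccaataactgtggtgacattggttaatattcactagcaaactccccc
Serpina1d, GRCm38.p6 chr12:103773634-103773883, minus strand: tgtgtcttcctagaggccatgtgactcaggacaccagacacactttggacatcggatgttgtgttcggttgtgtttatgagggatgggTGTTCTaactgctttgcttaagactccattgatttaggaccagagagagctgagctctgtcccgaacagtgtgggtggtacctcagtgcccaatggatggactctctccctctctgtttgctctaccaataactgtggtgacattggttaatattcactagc
Serpina1f, GRCm38.p6 chr12:103695530-103695779, minus strand: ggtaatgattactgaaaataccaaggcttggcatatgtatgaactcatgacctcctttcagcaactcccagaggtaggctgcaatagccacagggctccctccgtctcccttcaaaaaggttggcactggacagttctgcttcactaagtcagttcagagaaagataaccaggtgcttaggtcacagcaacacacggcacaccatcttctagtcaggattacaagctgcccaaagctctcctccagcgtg

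The hexamer began 118 bases before the start of *Apoh*, 174 before *Serpina1b* and 162 before *Serpina1d*. *Serpina1b* and *Serpina1d* matched at 223 of 238 aligned promoter bases (93.7%), and *Serpina1a*, *Serpina1c* and *Serpina1e* also held it. The window of *Kap* held the TATA box TATAAA, 31 bases before its start, a motif present in either strand of 12.4% of all promoters. The HNF4A motif CAAAGTCCA, present in 0.384% of all promoters, was searched too and matched none of the 9. A match of letters is not a binding site, and no match says nothing about the factor.

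In every group *Kap* was by far the most abundant of the 10 genes. Per kilobase of exon it stood at 45129 CPM per kb in male controls, against 399 for *Odc1*, 214 for *Acsm3*, 80.3 for *Serpina1d*, 56.2 for *Serpina1f*, 31.4 for *Timd2*, 11.3 for *Gusb*, 8.05 for *Apoh* and 4.19 for *Serpina1b*, with *Serpina6* at 0. In female controls the order changed: *Kap* (16385 CPM per kb) and *Odc1* (127) were followed by *Serpina1f* (98.3), *Serpina1d* (22.4), *Gusb* (7.44) and *Timd2* (3.03), and the remaining genes were below 1, with *Acsm3* at 0.782. *Kap* had the highest mean CPM of all genes in male controls and male mutants, and took between 0.314% and 3.48% of a mouse's counts.

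**Figure D1:**
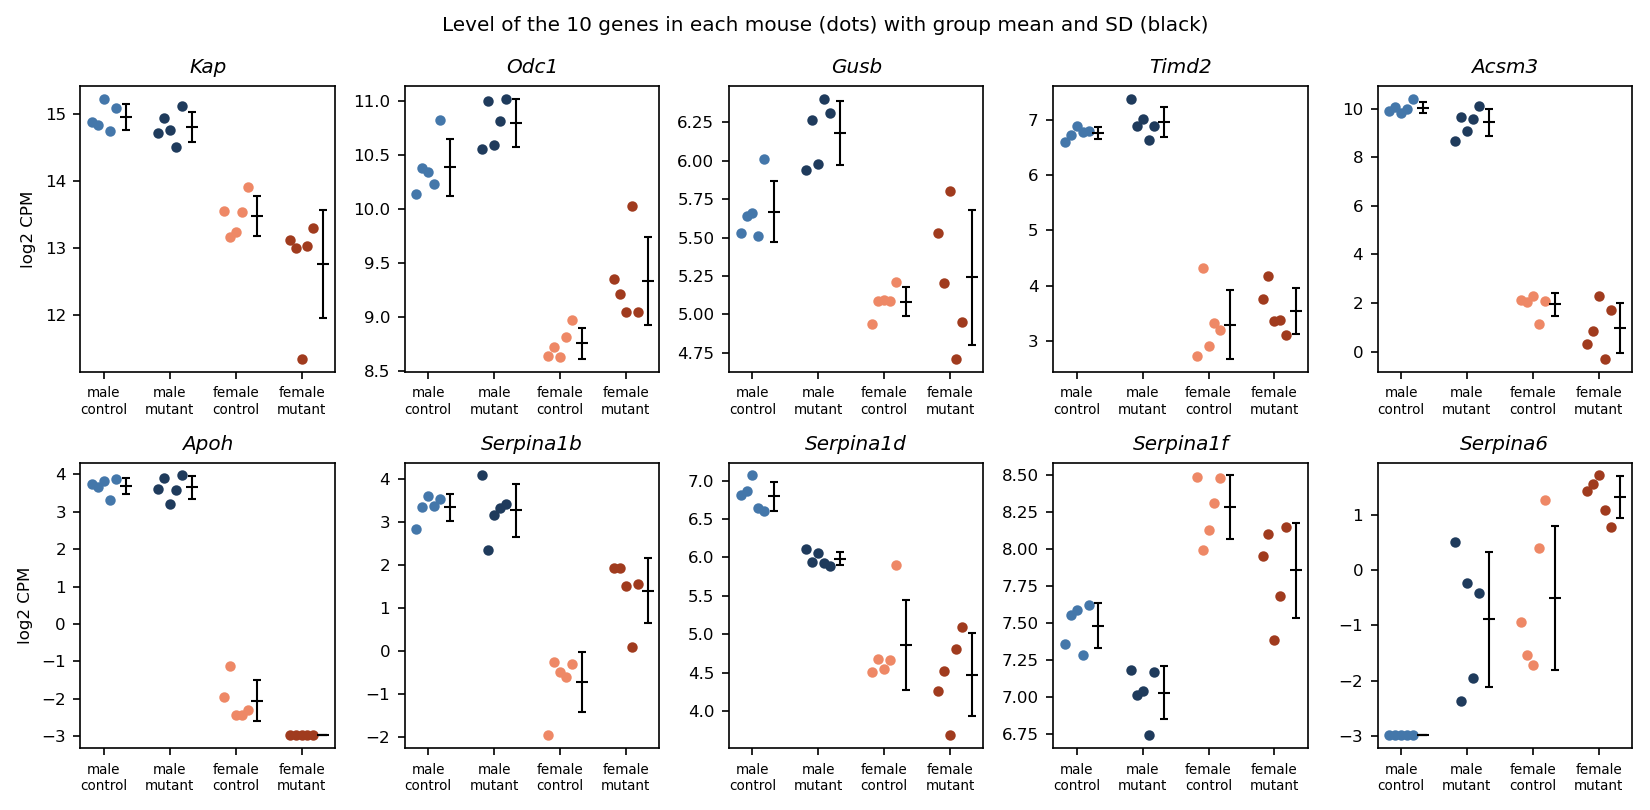
Level of each gene in each of the 20 mice, as log2 CPM with a prior count of 2 (y axis, with its own range in each panel), by group (x axis). Dots are mice, and the black mark and bar are the group mean and SD (n = 5); *Serpina1f* and *Serpina6* sit higher in females and the other 8 genes higher in males.

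The first question was how far the genes differed between the sexes, without and with loss of *Pkd2*. Among controls, 7 of the 8 genes open to a test differed between males and females at an adjusted p under 0.01 (edgeR quasi-likelihood test, Benjamini-Hochberg over 14123 genes), 6 higher and 1 lower in males. Over all genes tested, 17.8% passed in this comparison, 8.75% higher and 9.02% lower in males. *Serpina6* had too few counts to enter the fit. For each of these 7 genes the male and female controls did not overlap, which held for 23.9% of all genes tested. The groups did not overlap for *Serpina6*, *Apoh* and *Serpina1b* either, of which the first was not fitted and the others were chosen by this pattern, so they are not set against that share. Levels are CPM after TMM scaling throughout, and in whole-kidney RNA fewer cells of a type cannot be told apart from less RNA per cell.

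*Kap* encodes a secreted protein of the proximal tubule and is the classical marker of androgen action in mouse kidney. Its level in the male controls MC1 to MC5 was 30039, 29036, 38225, 27545 and 34686 CPM. In the female controls FC1 to FC5 it was 11953, 9133, 9681, 11872 and 15282 CPM. The lowest male was thus well above the highest female, and the male level was 2.75 times the female level (log2 fold change 1.41, SE 0.122, edgeR adjusted p = 4.69e-06). Among mutants, *Kap* was at 26932, 31263, 27797, 23204 and 35382 CPM in MM1 to MM5. In FM1 to FM5 it was at 8916, 8207, 2593, 8366 and 10054 CPM. FM3 stood far below the other females, and males exceeded females by 1.89 on the log2 scale (SE 0.311, adjusted p = 0.0033).

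*Odc1* encodes ornithine decarboxylase, the rate-limiting enzyme of polyamine synthesis. MC1 to MC5 had 1131, 1337, 1299, 1203 and 1820 CPM. FC1 to FC5 had 397, 422, 395, 450 and 500 CPM. No female control reached the level of a male, and the log2 fold change was 1.70 (SE 0.0887, adjusted p = 4.37e-08). In the mutants it was 1.46 (SE 0.228, adjusted p = 0.00252), again without overlap: males lay between 1502 and 2079 CPM and females between 527 and 1044, the highest being FM4.

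*Gusb*, which encodes the lysosomal enzyme beta-glucuronidase, had the smallest sex difference of the androgen-responsive genes. Male controls had 46.2, 49.7, 50.3, 45.4 and 64.3 CPM and female controls 30.5, 33.9, 34.1, 33.8 and 36.8. The lowest male lay above the highest female, with a log2 fold change of 0.66 (SE 0.0813, adjusted p = 9.12e-05). Among mutants the difference was 0.91 (SE 0.210), and with an adjusted p of 0.017 it missed the threshold, although the males (61.2 to 84.5 CPM) and the females (26.0 to 55.8) did not overlap. It passed by DESeq2's Wald test (adjusted p = 0.000554), without the filter on low counts (edgeR adjusted p = 0.0082), without the litter term and in a single fit of all 20 mice (0.000586). In that single fit the difference among controls was 0.64 (SE 0.173) and missed the threshold (edgeR adjusted p = 0.0147). 

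*Timd2* encodes a cell-surface receptor of the TIM family that takes up ferritin. Its level in male controls was 97.2, 107, 119, 110 and 112 CPM. In female controls it was 6.46, 19.9, 7.37, 9.88 and 8.96 CPM. All males were thus far above all females, FC2 included, and the log2 fold change was 3.59 (SE 0.256, adjusted p = 8.28e-07). The mutants differed almost as much, by 3.39 (SE 0.201, adjusted p = 3.77e-06), with 99.6 to 167 CPM in males and 8.40 to 17.8 in females.

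*Acsm3*, a mitochondrial enzyme that activates medium-chain fatty acids, had the largest sex difference of the genes tested. Male controls had 957, 1067, 910, 1008 and 1350 CPM. Female controls had 4.22, 3.98, 4.83, 2.08 and 4.18 CPM. The male mean was 274 times the female mean (log2 fold change 8.13, SE 0.178, adjusted p = 2.06e-11). Male mutants lay between 411 and 1121 CPM and female mutants between 0.690 and 4.71, a log2 fold change of 8.36 (SE 0.473, adjusted p = 2.83e-06).

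*Apoh* encodes beta-2-glycoprotein I, a plasma protein that binds phospholipids. It had 13.2, 12.5, 14.0, 9.90 and 14.5 CPM in male controls and 12.0, 14.8, 9.04, 11.9 and 15.6 in male mutants. Female controls had 2, 6, 1, 1 and 1 counts, or 0.0589 to 0.327 CPM, and the 5 female mutants had 0 counts each. FM4 was the library in which only 76 genes had exactly 1 count, so its 0 is less certain. From the summed counts of 912 in male and 11 in female controls the ratio was 94.5, with a 95% interval of 52.5 to 190 that covers counting error only. The interval leaves out the spread between mice and is no test of the difference, since *Apoh* was chosen by this pattern. FC2 held 6 of the 11 counts: the fitted log2 fold change of 6.36 (SE 0.288) was 7.08 without FC2 and 6.96 without MC4. Against the floor of 3 counts in each female mutant, male mutants were at least 69.1-fold higher. Without MM5, whose *Apoh* was the highest of the male mutants, the mutant males lay between 9.04 and 14.8 CPM.

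The alpha-1-antitrypsin paralogs *Serpina1b* and *Serpina1d* were also higher in males. *Serpina1b* had 6.95, 10.0, 12.0, 10.2 and 11.4 CPM in male controls and 0.132, 0.709, 0.589, 0.536 and 0.683 in female controls. The log2 fold change was 4.40 (SE 0.282). In male mutants it had 16.7, 4.99, 8.84, 9.90 and 10.5 CPM and in female mutants 3.68, 3.66, 2.73, 0.948 and 2.82, a log2 fold change of 1.82 (SE 0.375), or 1.79 without MM5. The difference between the sexes was thus smaller in the mutants, whose females were higher than the control females.

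*Serpina1d*, the most abundant paralog, had 113, 116, 134, 99.7 and 97.2 CPM in male controls. In female controls it had 22.6, 25.4, 23.2, 25.2 and 59.5 CPM. FC5 stood above the other females but below every male, and the log2 fold change was 1.86 (SE 0.209, adjusted p = 4.35e-05). In mutants it was 1.49 (SE 0.211, adjusted p = 0.00143), with 59.3 to 68.8 CPM in males and 12.7 to 34.0 in females, and without MM5 it was 1.67 (adjusted p = 0.00279).

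*Serpina1f* and *Serpina6* went the other way. *Serpina1f* is a serpin known from the epididymis, whose own markers were nearly absent here. It had 164, 187, 192, 155 and 197 CPM in male controls and 358, 255, 280, 317 and 356 in female controls. Every female exceeded every male, and the log2 fold change of male over female was −0.87 (SE 0.0826, adjusted p = 1.07e-05). In mutants it was again −0.87 (SE 0.132, adjusted p = 0.0021), with 107 to 145 CPM in males and 167 to 283 in females.

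*Serpina6* encodes corticosteroid-binding globulin, which carries glucocorticoids in plasma. The 5 male controls had 0 counts each, and the female controls had 6, 4, 3, 20 and 30 counts, or 0.396, 0.218, 0.177, 1.19 and 2.28 CPM. Female controls were at least 3.97-fold higher than a floor of 3 counts in each male. Without the filter on low counts the lower level in male controls passed, with an edgeR adjusted p of 0.00266. Male mutants had 1.30, 0.0683, 0.721, 0.132 and 0.621 CPM, and every female mutant was higher, at 2.57, 2.82, 3.14, 1.98 and 1.59 CPM. The log2 fold change of −2.08 (SE 0.608) did not pass (edgeR adjusted p = 0.0437), but did by DESeq2's Wald test (adjusted p = 0.00527). Without MM5 it was −2.31 (edgeR adjusted p = 0.105). The 10 genes are therefore not all higher in males.

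**Figure D2:**
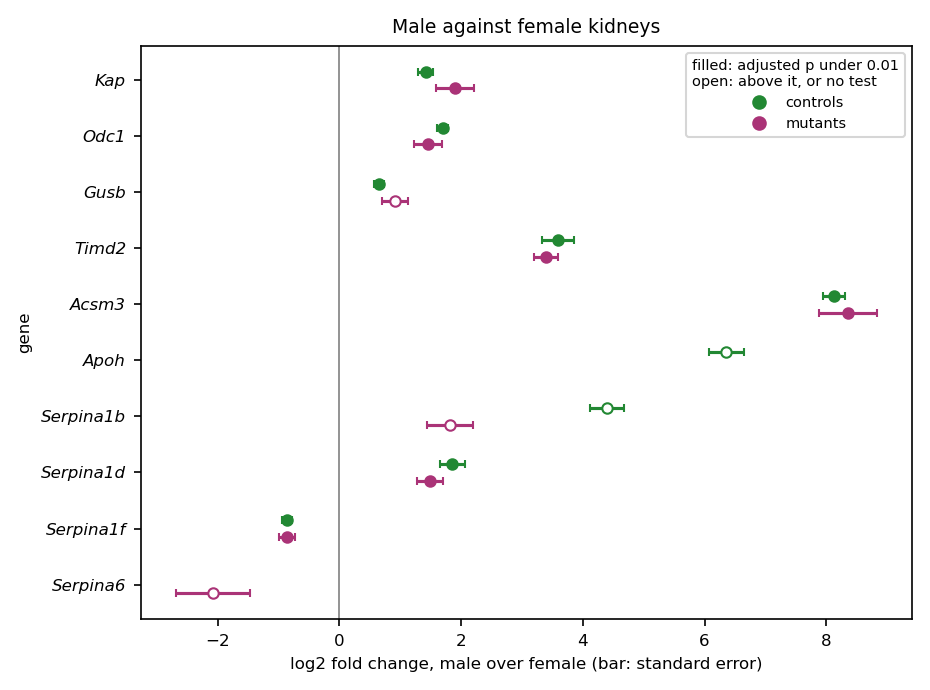
Log2 fold change of male over female (x axis) for each gene (y axis) in controls and in mutants, with its standard error as a bar. Filled points passed the threshold; *Apoh* and *Serpina1b* have no test, and the points of *Apoh* in mutants and *Serpina6* in controls are left out because a group was at 0. *Acsm3* lies farthest to the right, at 8.13 and 8.36, and *Serpina1f* to the left of 0 at −0.87 in both.

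Among mutants, 6 of the 8 genes passed, 5 higher in males and *Serpina1f* lower, where 5.42% of all genes tested passed (3.59% higher and 1.84% lower in males). *Gusb* and *Serpina6* did not. Males and females did not overlap for any of the 8, as for 13.3% of all genes tested, nor for *Apoh* and *Serpina1b*, which were chosen by their pattern. The count fell to 2 without FM1 and to 3 without MM4, MM5 or FM5, and rose to 7 without FM3. By DESeq2's Wald test all 8 passed. *Timd2* and *Acsm3* passed with any mouse left out, *Serpina1d* with any but FM1, and *Kap* in 5 of 10 such fits, being lost without MM3, MM4, MM5, FM1 or FM5. *Odc1* and *Serpina1f* were lost without MM4, MM5, FM1 or FM5. Among controls, in contrast, all 7 genes passed with any mouse left out.

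Male and female mice of the same litter could be compared too. In controls of litters A, B and C, the male excess of *Kap* was 1.43, 1.44 and 1.18 on the log2 scale and that of *Acsm3* was 7.81, 8.15 and 8.29. *Serpina1d* varied more, at 2.41, 2.01 and 0.71, the last being the litter of FC5. Litters A and B each held a group with 1 mouse and litter C held 1 mouse of every group, so these differences carry no error.

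The second question was how the genes differed between mutant and control kidneys. In males, 3 of the 8 genes passed, where 8.46% of all genes tested passed: *Gusb* was higher in mutants, and *Serpina1d* and *Serpina1f* were lower. These counts stand against 5.25% of all genes higher and 3.2% lower. In females none passed by edgeR, with 0.637% of all genes passing (0.457% higher and 0.18% lower). At an unadjusted p under 0.05, which 2979 of 14439 genes tested reached in females, *Odc1*, *Serpina1f* and *Serpina6* did. DESeq2's Wald test also called none of the 8 in females.

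*Serpina1d* fell most clearly. From 113, 116, 134, 99.7 and 97.2 CPM in male controls it went to 68.8, 61.6, 66.2, 60.9 and 59.3 in male mutants. No mutant reached the lowest control, a separation seen in 15.3% of all genes tested, and the log2 fold change was −0.79 (SE 0.0760, edgeR adjusted p = 0.00025). It passed in 10 of 10 fits with a mouse left out, and without MM5 it was −0.81. Female mutants had 19.02, 22.8, 12.7, 27.9 and 34.0 CPM, overlapping the female controls, and the log2 fold change of −0.33 (SE 0.183) did not pass (adjusted p = 0.344). Within litters A, B and C the males differed by −0.89, −0.65 and −0.71 and the females by −0.25, −0.29 and −0.81 on the log2 scale.

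*Serpina1f* fell in male mutants to 145, 129, 131, 107 and 143 CPM, below every male control (log2 fold change −0.42, SE 0.0776, adjusted p = 0.00444). The call was lost without MC2, MC3, MC4, MC5 or MM5, with values from −0.45 to −0.38. In female mutants it had 248, 275, 167, 205 and 283 CPM. These overlapped the controls, and the log2 fold change of −0.39 (SE 0.131, adjusted p = 0.116) was close to that of males in size.

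*Gusb* rose in male mutants to 61.2, 76.9, 62.9, 84.5 and 79.2 CPM. Mutants overlapped the controls only through MC5, at 64.3 CPM, and the log2 fold change was 0.50 (SE 0.101, adjusted p = 0.00622). The call was lost without MC1, MC2, MC3, MC4 or MM2, and in a single fit of all 20 mice (adjusted p = 0.0514). Female mutants had 46.2, 36.8, 55.8, 26.0 and 30.8 CPM, on both sides of the female controls (log2 fold change 0.24, SE 0.200, adjusted p = 0.576).

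*Odc1* was at 1502, 2048, 1543, 1808 and 2079 CPM in male mutants and at 652, 594, 527, 1044 and 527 in female mutants. In females, every mutant was above every control, as was true of 7.04% of genes in either direction, but the log2 fold change of 0.64 (SE 0.189) had an adjusted p of 0.0759, and in males 0.42 (SE 0.104) had 0.0157. Without FM4, the female difference was 0.43. In males the value passed without MM1, and by DESeq2's Wald test (adjusted p = 0.000599).

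The other androgen-responsive genes did not pass in either sex. *Kap* differed by −0.11 in males (SE 0.120, adjusted p = 0.558) and by −0.60 in females (SE 0.281, adjusted p = 0.262). *Timd2* differed by 0.24 in males (SE 0.119, adjusted p = 0.178) and by 0.23 in females (SE 0.298, adjusted p = 0.741). *Acsm3* in male mutants had 411, 815, 547, 765 and 1121 CPM, lower than the controls except in MM5, with a log2 fold change of −0.58 (SE 0.167, adjusted p = 0.031). It passed without MM2 and by DESeq2 (adjusted p = 0.0027). In females it was 3.86 ± 1.04 CPM (SD, n = 5) in controls and 2.27 ± 1.65 in mutants (log2 fold change −0.76, SE 0.476, adjusted p = 0.418).

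Of the genes without a test, *Apoh* was at 12.8 ± 1.82 CPM (SD, n = 5) in male controls and 12.7 ± 2.61 in male mutants, a log2 fold change of 0.05 (SE 0.111), or 0.04 without MM5. *Serpina1b* in males was at 10.1 ± 1.95 and 10.2 ± 4.24 CPM, a log2 fold change of 0.03 (SE 0.272), or 0.07 without MM5. In females it was at 0.530 ± 0.233 CPM in controls and 2.77 ± 1.11 in mutants, a log2 fold change of 2.42 (SE 0.486). The lowest female mutant was FM4, at 0.948 CPM, above the highest female control at 0.709, and without FM4 the value was 2.66.

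*Serpina6*, at 0 counts in every male control, had 23, 1, 11, 2 and 11 counts in MM1 to MM5. Male mutants were on average at least 2.65-fold above the floor of 3 counts per control. Without MM5, the other male mutants had 0.0683 to 1.30 CPM, the highest being MM1. Without the filter on low counts the difference had an edgeR adjusted p of 0.0105 and did not pass, while by DESeq2's Wald test it did (adjusted p = 0.000737). In females the log2 fold change was 1.82 (SE 0.619, adjusted p = 0.117), with FC5, at 2.28 CPM, within the range of the mutants.

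**Figure D3:**
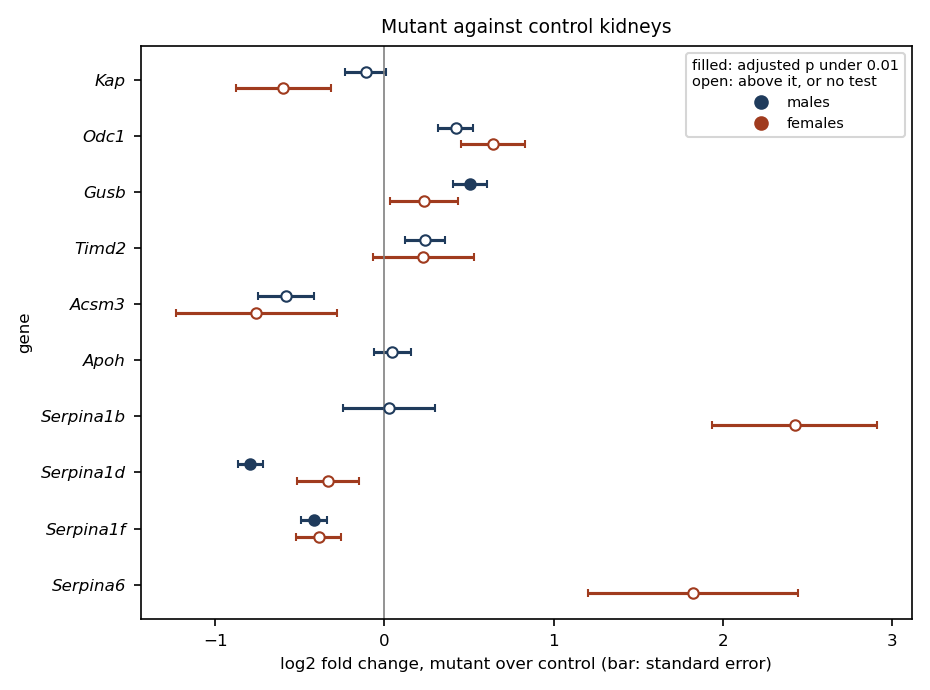
Log2 fold change of mutant over control (x axis) for each gene (y axis) in males and in females, with its standard error as a bar. Filled points passed the threshold: *Gusb* at 0.50, *Serpina1d* at −0.79 and *Serpina1f* at −0.42, all in males; *Apoh* and *Serpina1b* have no test, and *Apoh* in females and *Serpina6* in males are left out because a group was at 0.

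In the fit of both sexes, which had a term for each of the 6 combinations of sex and litter, 3 of the 8 genes passed, where 15.9% of all genes tested passed (10% higher and 5.86% lower in mutants). *Odc1* rose by 0.53 (SE 0.118, edgeR adjusted p = 0.00261). *Serpina1d* fell by 0.57 on the log2 scale (SE 0.116, adjusted p = 0.00139) and *Serpina1f* fell by 0.41 (SE 0.0782, adjusted p = 0.000871). No gene of the 10 separated all mutants from all controls, as 1.24% of genes did. These 3 calls held with any mouse left out. *Gusb*, at 0.36 (SE 0.118, adjusted p = 0.0298), passed without FM4, and *Acsm3*, at −0.62 (SE 0.211, adjusted p = 0.0356), passed without FM3. *Serpina6* entered the fit only without the filter on low counts or with some mice left out, and was then higher in mutants, by 2.44 without the filter (edgeR adjusted p = 0.00367). Of the 11 fits with 1 mouse left out that it entered, it passed without MC2, MC3, MM2 or MM4 and missed the threshold in the other 7, with adjusted p up to 0.0152, and without MM5 it was 2.25 (adjusted p = 0.0111).

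The third question was whether the difference between mutants and controls itself differed between the sexes. None of the 8 genes passed in this term by edgeR, and 0% of the 14820 genes tested did. At an unadjusted p under 0.05, 618 of all genes and, of the 8, *Serpina6* passed, though its male controls were all at 0. DESeq2's Wald test also called none of the 8. The term for *Serpina1d* was −0.43 (SE 0.216), the sign of a larger fall in males, and that for *Kap* was 0.51 (SE 0.335). The fall of *Serpina1d* in males is therefore not shown to differ from the change in females.

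Proximal tubule markers, which mark the segment where androgen is known to raise genes such as *Kap*, were measured beside the genes studied here. Whether each of these genes is expressed in that segment was not tested. Of 12 markers, 1 (*Slc13a3*, a dicarboxylate transporter) was called lower in male mutants, by 0.69 on the log2 scale, against 3.2% of all genes. None of the 12 markers was called in females, where 66 genes were called higher and 26 lower in all. Their summed level was 18466 to 19656 CPM in male controls, 13684 to 20406 in male mutants, 14345 to 16227 in female controls and 9170 to 17085 in female mutants. FM3, the lowest in *Kap*, *Serpina1d* and *Serpina1f* of the female mutants, also had the lowest sum, at 9170 CPM. FM3 was, however, the highest of the female mutants in *Acsm3* (4.71 CPM), *Gusb* (55.8) and *Serpina6* (3.14). It was neither lowest nor highest in *Odc1*, *Timd2* and *Serpina1b*. A relation of the genes to this sum was not tested.

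Set against that sum, a scale chosen after the values were seen, *Kap* was at 1672 CPM per 1000 CPM of the markers in male controls and 1674 in male mutants. *Serpina1d* was at 5.88 ± 0.782 (SD, n = 5) in male controls and 3.74 ± 0.812 in male mutants, 0.637 times as high, and the groups then overlapped. *Serpina1f* was 0.821 times as high in male mutants, also with overlap. *Gusb* was 1.58 times as high in male mutants on this scale, with no overlap. *Odc1* in females was 1.89 times as high, with no overlap, though the highest control (30.8) lay close to the lowest mutant (31.7). In males *Odc1* was 1.46 times as high, with overlap. No test was run on this scale, and the share of all genes without overlap on it was not measured. Division by a lower sum raises every gene of a mouse on this scale. 

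Tubule injury markers, such as *Havcr1* (KIM-1) and *Krt20*, were called higher in male mutants in 6 of 6. In female mutants 1 of 6 was called higher, *Havcr1*. It rose by 5.77 in males and 7.29 in females on the log2 scale. The median log2 fold change of the 6 injury markers was 3.86 in males and 3.35 in females. Of all genes, 5.25% were called higher in male and 0.457% in female mutants. Markers of the thick ascending limb and distal tubule were called lower in male mutants in 4 of 6, against 3.2% of all genes. *Pvalb* fell there by 1.23 and *Calb1* by 1.12. In female mutants 1 of 6 was called lower, *Slc12a3*, by 1.18, against 0.18% of all genes. The median log2 fold change of these 6 markers was −0.94 in males and −0.90 in females, so the sexes differed in calls more than in size. The part of these changes in the levels of the 10 genes was not tested.

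The *Serpina1* paralogs were examined as a family, because their reads can be confused. The longest open reading frames of *Serpina1b* and *Serpina1d* matched at 1199 of 1242 bases (96.5%), and 27.9% of the 100-base windows of *Serpina1b* and 29.8% of those of *Serpina1d* occurred unchanged in another family member. Windows of *Serpina1f* and *Serpina6* were not shared, and *Serpina1f* matched *Serpina1d* at 57.7% of aligned bases. How reads that match several copies were counted is not given in the sources used here, so the split between *Serpina1a*, *Serpina1b*, *Serpina1c*, *Serpina1d* and *Serpina1e* is uncertain, while their sum is less so.

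That sum was 140 ± 15.2 CPM (SD, n = 5) in male controls, 88.0 ± 8.85 in male mutants, 36.4 ± 17.6 in female controls and 33.6 ± 8.98 in female mutants. Male mutants (79.3 to 101 CPM) lay below male controls (124 to 161) without overlap, as for *Serpina1d* alone. Of the sum, *Serpina1d* took 80.0% in male controls, 72.3% in male mutants, 85.0% in female controls and 68.3% in female mutants. *Serpina1b* took 7.28%, 11.3%, 1.56% and 8.65%, and *Serpina1a* 11.2%, 12.5%, 9.43% and 19.1%. *Serpina1e* was at 7.45 CPM in MM5 and at most 0.257 in the other 19 mice.

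**Figure D4:**
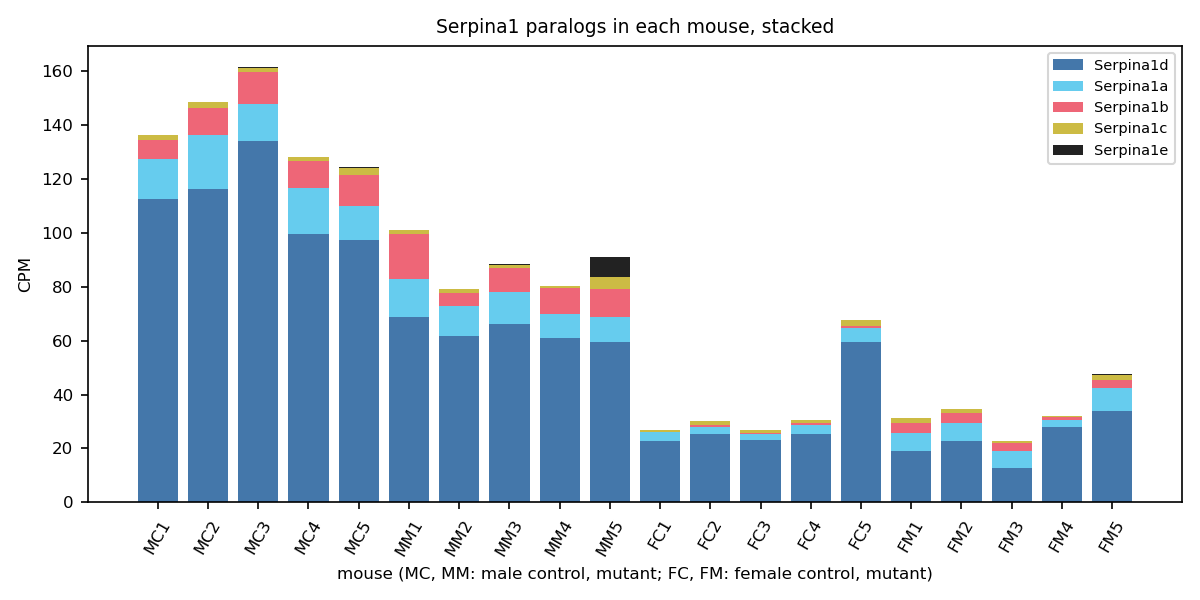
CPM (y axis) of the 5 near-identical *Serpina1* paralogs, stacked, in each of the 20 mice (x axis). *Serpina1d* makes up most of every bar, male controls stand at 124 to 161 CPM and male mutants at 79.3 to 101, and *Serpina1e* is visible only in MM5.

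Other genes of the same pathways were taken from lists. The 9 other androgen-responsive kidney genes were all called higher in males, 9 of 9 among controls and 9 of 9 among mutants. Of all genes tested, 8.75% were called higher in males among controls and 3.59% among mutants. The median log2 fold change of the 9 genes was 6.09 and 4.82, against −0.01 and −0.03 over all genes. The list was chosen with earlier results of these data known, so these counts and medians are a description and no test. *Slco1a1*, an organic anion transporter, was at 556 ± 119 CPM (SD, n = 5) in male controls and 0 to 0.236 in female controls. *Slc7a13*, an amino acid transporter, was at 1424 ± 87.1 CPM in male and 2.11 ± 1.01 in female controls. In male mutants *Cyp4a12a*, an androgen-induced fatty acid hydroxylase, rose by 1.23 on the log2 scale (edgeR adjusted p = 0.000697), and *Cyp7b1*, a steroid hydroxylase, fell by 1.55 (adjusted p = 2.87e-05). These were 1 of 9 called higher and 1 of 9 called lower, against 5.25% and 3.2% of all genes. In female mutants only *Cyp2e1*, a cytochrome P450 of small-molecule oxidation, was called, higher by 1.39 (edgeR adjusted p = 0.000229). This was 1 of 8 genes tested, against 0.457% of all genes.

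**Figure D5:**
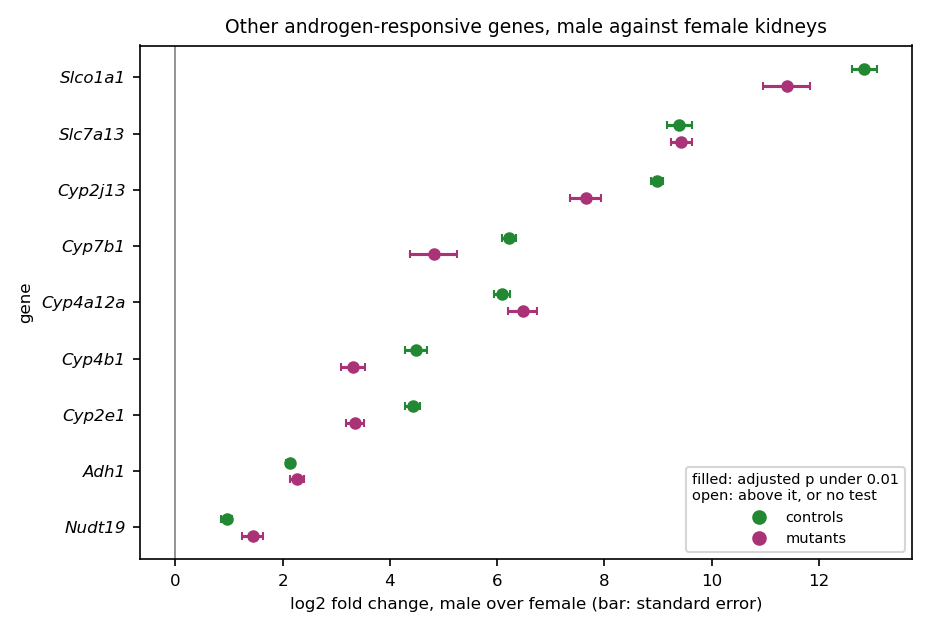
Log2 fold change of male over female (x axis) for the 9 other androgen-responsive genes (y axis) in controls and in mutants, with its standard error as a bar. All points passed and lie to the right of 0, from 0.96 for *Nudt19* to 12.85 for *Slco1a1* in controls; the position of *Slco1a1* depends on the prior count, since its female levels were near 0.

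Of 14 tested genes of androgen action and metabolism, 4 were higher in male controls and none lower, against 8.75% and 9.02% of all genes. *Srd5a2*, a 5-alpha-reductase that makes dihydrotestosterone, differed most, by 1.71 (adjusted p = 0.000511), followed by *Akr1c21*, a hydroxysteroid dehydrogenase, by 1.23 (adjusted p = 2.44e-06). In mutants 2 of 14 were higher in males, against 3.59% of all genes, *Srd5a2* by 2.85 and *Fkbp5*, a steroid-receptor co-chaperone, by 1.96. In male mutants *Akr1c21* fell by 0.69 and *Srd5a1* rose by 0.46.

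Of 11 polyamine genes tested beside *Odc1*, 2 passed among controls, where 17.8% of all genes did. *Sat1* was higher in male controls by 0.33 and *Arg2*, a mitochondrial arginase that supplies ornithine, was lower, with a log2 fold change of −3.07 (adjusted p = 7.62e-08). Among mutants, *Arg2* was the only gene of the 11 called, where 5.42% of all genes were, with a log2 fold change of male over female of −1.99. In male mutants *Aoc1*, a diamine oxidase, rose by 3.12 and *Sms*, spermine synthase, fell by 0.53. *Oaz1*, *Amd1* and *Amd2* were listed at 0 in every mouse.

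Of the 19 lysosomal glycosidases and sulfatases measured beside *Gusb*, 7 were higher and 1 was lower in male controls, against 8.75% and 9.02% of all genes, with *Galns*, a sulfatase, at 2.00 and *Neu1*, a sialidase, at 0.82. In mutants 4 of 19 were higher in males, against 3.59% of all genes. In male mutants 3 of 19 rose, against 5.25% of all genes, *Arsa*, a sulfatase, by 0.54 and *Hexa*, a hexosaminidase subunit, by 0.51 among them, and *Galns* was not called. In females none of the 19 was called between mutants and controls.

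Among relatives of *Acsm3*, *Acsm2* was higher in male controls by 1.97 (adjusted p = 8.17e-09) and in male mutants by 1.88, *Acsm5* was higher in male controls by 0.49, and *Acsm1* was lower in male controls by a log2 fold change of −0.56. In male mutants *Acsm1* fell by 0.63. Of the TIM family, *Havcr1*, the injury marker above, was higher in male than female controls by 1.61 (adjusted p = 0.00599), at 2.44 ± 1.19 and 0.575 ± 0.121 CPM (SD, n = 5). *Havcr2* was called only in the fit of all mice, higher in mutants by 0.95. Of the apolipoproteins, *Apoe* and *Clu* were lower in male controls, with log2 fold changes of −1.79 and −0.61, and no apolipoprotein was called between the sexes among mutants. *Apoe* rose in male mutants by 1.10.

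Of 20 other clade A serpins in the table, 4 had enough counts among controls, and *Serpina1a* was higher in males by 2.22 (adjusted p = 2.57e-05). This was 1 of 4 genes tested, against 8.75% of all genes. In male mutants 3 of 5 rose, against 5.25% of all genes: *Serpina10*, the protein Z-dependent protease inhibitor, by 4.45 (adjusted p = 0.000793), *Serpina3n* by 3.65 and *Serpina3g* by 2.02. *Serpina10* also rose in female mutants, by 3.86 (adjusted p = 0.0083). Neither *Serpina1d* nor *Serpina1f* shared this direction. In males, *Serpina1a*, a near-identical paralog of *Serpina1d*, did not share it either. It was at 15.6 ± 2.88 CPM (SD, n = 5) in male controls and 11.1 ± 2.09 in male mutants. These groups overlapped, and *Serpina1a* was not called lower. In females its mean was higher in mutants than in controls, also with overlap. *Serpina3a* and *Serpina5* were listed at 0 in every mouse.

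For 9 of the 10 genes, those with a mean of at least 1 CPM, the 2 genes with the most similar profile over the 20 mice were found by the root mean square difference of centred log2 CPM, among 13780 genes. This is a description, since all profiles share the same libraries and mostly follow sex. *Kap* lay nearest to *Acy3*, an aminoacylase, with a difference of 0.241, and to *Cyp2a4* with 0.289. *Acy3* was also nearest to *Serpina1d* (0.332), followed by *Hsd17b2* (0.352). *Odc1* lay nearest to *Dgkg* (0.292) and *Clip4* (0.297), *Gusb* to *Aim1* (0.218) and *Rdh10* (0.227), and *Timd2* to *Azgp1* (0.497) and *Ugt8a* (0.520). *Acsm3* lay nearest to the Y-linked genes *Uty* (0.684) and *Kdm5d* (0.742), which were at 0 in every female. *Apoh* lay nearest to *Mpped1* (0.740) and *AA536875* (0.826), *Serpina1b* to *Cml2* (0.783) and *Osbp2* (0.827), and *Serpina1f* to *2900092D14Rik* (0.169) and *Napsa* (0.178), a proximal tubule protease. *Napsa* was at 1952 ± 179 CPM (SD, n = 5) in male controls, 1186 ± 153 in male mutants, 3415 ± 742 in female controls and 2616 ± 646 in female mutants.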

How the data were processed

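Whole-kidney RNA of 20 mice was sequenced, 1 library each. Per the labels and the methods, reads were trimmed by the authors (fastp 0.23.2) and mapped to mm10 (STAR 2.7.10b), and the authors deposited whole-number counts per gene symbol without normalization. The counting tool, annotation and strandedness are not given in the sources used here.

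Here, counts were tested in R 4.3.3 with edgeR 4.0.16: TMM scaling, filterByExpr in each comparison, the quasi-likelihood test and Benjamini-Hochberg adjustment over all genes tested, with calls at an adjusted p under 0.01. Litter was a covariate within a sex or genotype, and the 6 groups of sex and litter over all mice. CPM used TMM library sizes, and log2 CPM a prior count of 2. A group at 3 counts or fewer in every mouse gave a lower bound. Named were the 10 genes, the 2 largest calls of each list and defining markers, and the 2 nearest profiles of each gene. Other list genes named (*Acsm5*, *Serpina3g*, *Serpina3k*, *Nudt19*, the *Serpina1* paralogs and genes at 0) were chosen after their values were seen. Some list genes are not reported here by name.

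The genes and lists were chosen with earlier results of these data known. Alternatives tried were size factors and the Wald test of DESeq2 1.42.0, other filters, no litter term, all 20 mice in 1 fit and each mouse left out. On simulated data in which 200 genes differed by a log2 value of 1, the test found 79% of them in the comparison of the sexes among controls (14123 genes), 58.5% among mutants (14416), 75% between mutant and control males (14010), 56% in females (14439) and 49% for the sex-by-genotype term (14820). Depth was 11307741 to 19324073 counts per mouse, and the median SE between mutants and controls was 0.107 (log2) for males and 0.150 for females. Sequence comparisons used Biopython 1.88.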

Additional observations from a re-analysis of the deposited data

Results flagged for a closer look

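Of 40 sets of 5 mice examined (10 genes in 4 groups), 6 held a mouse whose distance to its nearest neighbour took more than 0.71 of the range of the 5, and about 2 are expected by chance, since about 1 in 20 sets shows this. The expected number is rough, because the sets come from the same 20 mice and are not independent. *Apoh* in female mutants and *Serpina6* in male controls were at 0 in every mouse and could not be flagged. In female mutants, *Kap* was at 2590 CPM in FM3, next to 8210 in the nearest mouse, and *Odc1* was at 1040 CPM in FM4, next to 652. In male controls, *Gusb* was at 64.3 CPM in MC5, next to 50.3. In female controls, *Timd2* was at 19.9 CPM in FC2, next to 9.88, and *Apoh* was at 0.327 CPM in the same mouse, next to 0.132. *Serpina1d* was at 59.5 CPM in the female control FC5, next to 25.4. FM4 is the library with fewer genes detected, and FM3 had the lowest proximal tubule marker sum of the 20 mice.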

How the results depend on the processing

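The count of genes that passed between the sexes among controls was 7 with any mouse left out. Among mutants it ranged from 2 to 7, between mutant and control males from 1 (without MC2, MC3 or MC4) to 4 (without MM1), over all mice from 3 to 4, and in females and for the sex-by-genotype term it was 0. Between mutant and control males the count was 6 under the Wald test of DESeq2 and 1 in a single fit of all mice, the latter being *Serpina1d*. Of 248 values of the 8 tested genes under other settings, 233 kept direction and side of the threshold. The sex-by-genotype term of *Serpina1f*, near 0, changed sign to −0.0198 with DESeq2 size factors, −0.0182 by the Wald test, −0.00792 with at least 10 counts in every mouse and −0.0394 without litter, and the cause was not tested. With 1 mouse left out this term ranged from −0.0842 to 0.121 for *Serpina1f*, from −0.280 to 0.243 for *Timd2*, from −0.0894 to 0.719 for *Acsm3* and from −0.328 to 0.0273 for *Odc1*. In the single fit of all mice, the counts for male mutants also fell for androgen action and metabolism (from 2 to 0), acyl-CoA synthetases (1 to 0), proximal tubule markers (1 to 0), liver markers (1 to 0), collecting duct markers (2 to 1) and polyamine genes (2 to 1). The count for other clade A serpins fell from 3 to 2. Mice were matched by litter, a term in each fit, and without it the counts were 7 and 7 between the sexes, 3 in male mutants, 0 in female mutants, 3 over all mice and 0 for the interaction. Beyond litter, no paired analysis was possible because the labels give no replicate numbers shared by the groups. *Apoh* in females and *Serpina6* in males lay at or under 3 counts in most mice, so depth limits their fold changes.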

Other observations

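Among the male mutants, the order of *Serpina6* in CPM followed that of a kidney weight given in the labels, as a percentage of body weight, a relation noticed in the data and not tested over 5 mice: MM1 had 1.30 CPM at 2.15%, MM3 0.721 at 1.79%, MM5 0.621 at 1.71%, MM4 0.132 at 1.54% and MM2 0.0683 at 1.22%. The counts were 23, 11, 11, 2 and 1 in that order. MM3 and MM5 were thus ordered only by library scaling, and MM4 and MM2 lay under the floor of 3 counts. The counts therefore do not fix the order within these pairs. In female mutants the orders differed: FM3 had 3.14 CPM at 1.46% and FM1 2.57 at 1.38%, but FM2 had 2.82 at 1.24%, and FM4 with 1.98 CPM at 0.836% stood above FM5 with 1.59 at 1%.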
